A study of Mus musculus with 34 samples.

Results

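Aquaporins are membrane channels that let water, and in some family members glycerol or other small solutes, cross cells. The 9 aquaporin genes described here were Aqp1, Aqp2, Aqp3, Aqp4, Aqp5, Aqp6, Aqp7, Aqp8 and Aqp11, a list taken by gene symbol from tables of 23509 genes. They were measured by polyA-selected RNA sequencing of whole kidney from 34 C57BL6 mice on postnatal day 28. The PBS group (n = 11) and the RGLS4326 group (n = 11) were Pkd2-KO mice, a genotype that the labels also spell Pdk2KO. All 11 libraries labelled as PBS were used, more than the study counts in that group for its RNA sequencing, and the labels do not mark which were left out there. Both groups were injected subcutaneously on postnatal days 10, 11, 12 and 19, the PBS group with saline vehicle and the RGLS4326 group with 20 mg of oligonucleotide per kg of body weight. The untreated non-transgenic group (UNT, n = 12) had the wildtype genotype and received no injection, so PBS and UNT mice differed in genotype and in dosing together, which cannot be told apart. The study gives the model as floxed Pkd2 alleles with Cre driven by Pkhd1. As background, the Pkhd1 promoter is known to be active mainly in collecting duct, so other cells of these kidneys could keep Pkd2. RGLS4326 is a short, chemically modified oligonucleotide that pairs with the seed of the microRNA miR-17.

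In the kidney most filtered water is taken back in the proximal tubule and thin descending limb, where AQP1 lies in both faces of the cell. The final share is regulated in the collecting duct. There vasopressin acts through its receptor AVPR2, cAMP and protein kinase A to move AQP2 into the apical membrane of principal cells and to raise Aqp2 transcription, and water leaves through AQP3 and AQP4 on the opposite face. AQP6 lies in vesicles of intercalated cells, AQP7 is a glycerol channel of the straight proximal tubule and of fat cells, and AQP11 lies in the endoplasmic reticulum of proximal tubule cells, where its loss in mice gives cystic kidneys.

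Libraries held 17603122 to 54981992 reads in genes. Levels are given as CPM, reads per 1000000 reads in genes after scaling between libraries, and levels of different genes are compared only as CPM per kilobase of the longest coding transcript. Pkd2 was 274 ± 34.4 CPM in UNT mice (SD, n = 12), 160 ± 32.2 CPM in PBS mice (SD, n = 11) and 210 ± 23.8 CPM in RGLS4326 mice (SD, n = 11), and every PBS mouse was below every UNT mouse. The share of reads that the counter placed in no gene was 9.843% to 11.349% in UNT mice and 5.175% to 8.995% in PBS mice, with no overlap, and 4.938% to 12.011% in RGLS4326 mice. The library numbers in the deposited names restart, which divides the libraries into 3 sets, each with all 3 groups. In set 2 the 3 RGLS4326 libraries had no-gene shares of 11.324% to 12.011%, against 5.492% to 8.995% in its PBS libraries. The labels number the samples but name no animals, so the p-values measure the spread between these samples.

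The seed of miR-17, which RGLS4326 pairs with, was searched for in the 3′UTRs of all 9 aquaporins. Messenger RNAs with a match to bases 2 to 8 of a microRNA can be repressed by it. Capitals mark the seed in the mature mouse sequence from RefSeq and its complement, the match, in the 2 members with a match to all 7 seed bases, written as DNA on the gene's strand with 10 bases on either side.
mmu-miR-17-5p: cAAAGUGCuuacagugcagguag
Aqp1 site, chr6:55347218-55347224: atctccaaagGCACTTTgagggagagg
Aqp8 site, chr7:123467865-123467871: cactaggtgaGCACTTTgctactgagc
The Aqp1 match starts at base 421 of a 3′UTR of 1758 bases and the Aqp8 match at base 409 of 548. Aqp4 held a match to bases 2 to 7 followed by A, and the other 6 members held no match of 7 bases or more, where 18.62% of 21020 genes with an annotated 3′UTR held at least 1.

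Of the 9 genes, 8 passed the filter on low counts, and Aqp8 did not. All differences below come from edgeR's quasi-likelihood test, fitted on all 34 libraries, with Benjamini-Hochberg adjustment over 15644 genes and a call at an adjusted p under 0.05. Between PBS and UNT mice 7 of the 8 tested aquaporins were called, 4 higher (Aqp2, Aqp3, Aqp4 and Aqp5) and 3 lower (Aqp1, Aqp7 and Aqp11), where 82.1% of all tested genes were called, 43.1% higher and 39.0% lower. Of the 8, 3 were called between RGLS4326 and PBS mice, all lower (Aqp2, Aqp5 and Aqp6), where 33.8% of all tested genes were called, 15.3% higher and 18.5% lower. Between RGLS4326 and UNT mice 5 of 8 were called, Aqp4 higher and Aqp1, Aqp6, Aqp7 and Aqp11 lower, where 77.7% of all tested genes were called, 40.8% higher and 36.9% lower. With 8 genes tested, nothing particular to the aquaporins is read from these counts. The median log2 difference of the 8 aquaporins was 0.20 between PBS and UNT, -0.31 between RGLS4326 and PBS and -0.39 between RGLS4326 and UNT, beside 0.04, 0.0022 and 0.02 over all tested genes. The PBS against UNT calls of Aqp1, Aqp4, Aqp7 and Aqp11 passed under all 12 alternative fits and in all 34 fits that left out 1 library. In the 3 sets fitted alone their log2 fold changes were -1.21 to -1.02 for Aqp1, 1.52 to 1.64 for Aqp4, -1.23 to -0.63 for Aqp7 and -2.50 to -2.02 for Aqp11. All 3 comparisons draw on shared groups and are not independent of each other.

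**Figure D1:**
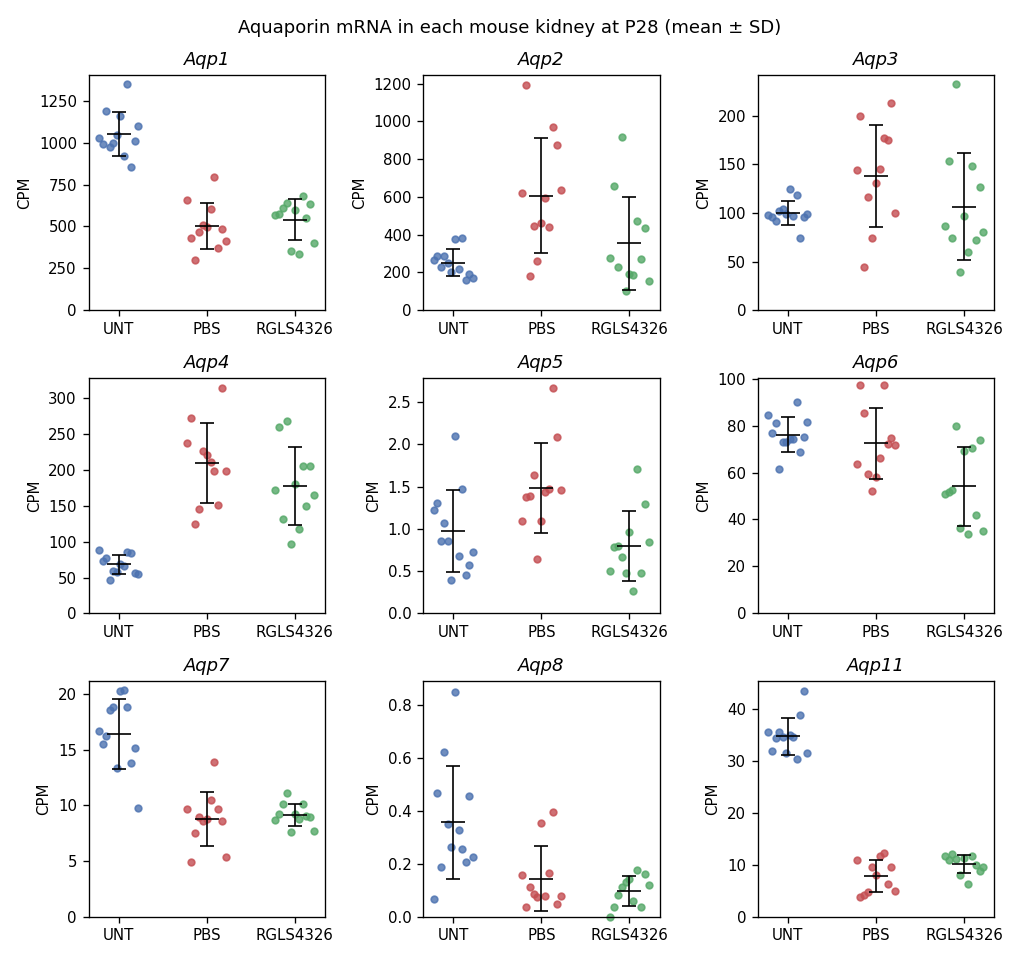
CPM of each of the 9 aquaporins (linear vertical axes from 0) in every mouse of the UNT, PBS and RGLS4326 groups; each point is a mouse, the dash is the group mean and the bars are 1 SD. Aqp1 and Aqp11 of all PBS and RGLS4326 mice lie below all UNT mice, Aqp4 lies above, and Aqp2 spreads widest among PBS and RGLS4326 mice.

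**Figure D2:**
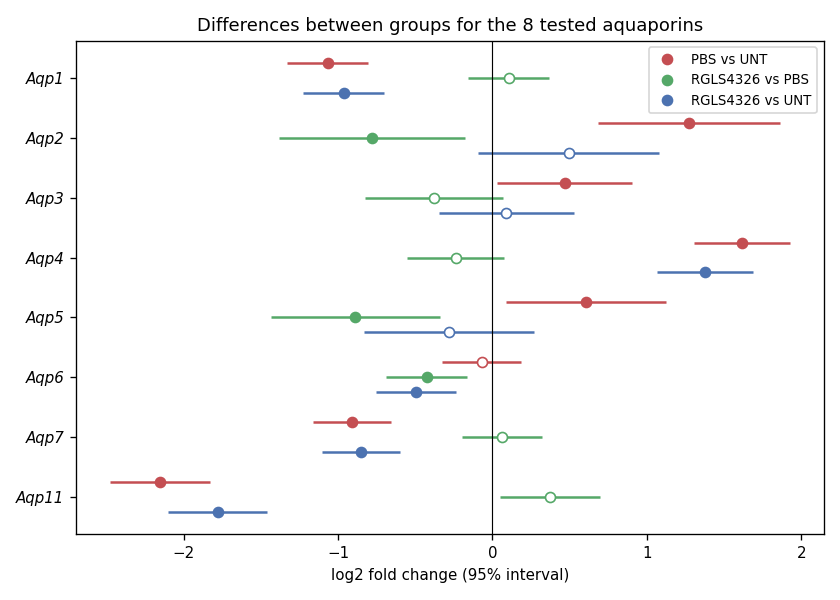
Log2 fold change with its 95% interval for the 8 tested aquaporins in each of the 3 comparisons; filled points passed an edgeR adjusted p of 0.05 and open points did not. Aqp11 has the lowest value between PBS and UNT and Aqp4 the highest.

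Aqp1, the constitutive water channel of the proximal tubule and thin descending limb, was the most abundant aquaporin per kilobase in UNT mice. The gene lies at chr6:55336432-55348555 on the plus strand (GRCm38) and has 4 exons. Its level was 853 to 1353 CPM in the UNT mice, with a median of 1020, and 300 to 793 CPM in the PBS mice, with a median of 483. In the RGLS4326 mice it was 333 to 682 CPM, with a median of 574. Neither Pkd2-KO group overlapped the UNT group, and those groups overlapped each other along nearly their whole range. Aqp1 was lower in PBS than in UNT mice by a log2 difference of -1.07 (SE 0.13, edgeR adjusted p = 2.58e-09), a mean of 502 ± 138 CPM (SD, n = 11) against 1053 ± 133 (SD, n = 12). RGLS4326 mice stayed below UNT mice, with a log2 difference of -0.96 (edgeR adjusted p = 2.68e-08). The log2 difference between RGLS4326 and PBS mice was 0.10, with a 95% interval of -0.16 to 0.37 (edgeR adjusted p = 0.541).

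Aqp11 had the largest fold difference of the tested members between PBS and UNT mice. The gene lies at chr7:97724006-97738289 on the minus strand and has 3 exons. Its level was 30.4 to 43.4 CPM in the UNT mice, with a median of 34.7, and 3.75 to 12.2 CPM in the PBS mice, with a median of 7.94. In the RGLS4326 mice it was 6.35 to 12.1 CPM, with a median of 11.0. All 22 Pkd2-KO mice lay below all UNT mice, and the RGLS4326 values sat in the upper part of the PBS range, with 10 of 11 above the PBS mean. The log2 fold change was -2.15 between PBS and UNT (SE 0.16, edgeR adjusted p = 1.03e-14) and -1.78 between RGLS4326 and UNT (edgeR adjusted p = 1.51e-12). The treated mice differed from PBS mice by 0.37 (SE 0.16, 95% interval 0.05 to 0.69), which did not pass after adjustment (edgeR adjusted p = 0.0653). That last difference passed when PBS replicate 1, 5, 7 or 8 or RGLS4326 replicate 7 was left out, with edgeR adjusted p from 0.0239 to 0.0465, and it was 0.89, 0.01 and 0.27 on the log2 scale in the 3 sets fitted alone, without passing.

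Aqp7, the glycerol channel, lies at chr4:41033074-41048139 on the minus strand, next to Aqp3 on the same strand. It was 9.76 to 20.4 CPM in the UNT mice (median 16.5), 4.95 to 13.9 CPM in the PBS mice (median 8.77) and 7.57 to 11.1 CPM in the RGLS4326 mice (median 9.0). All Pkd2-KO mice lay below the UNT mean, but the lowest UNT mouse fell within both Pkd2-KO ranges. The log2 fold change was -0.91 between PBS and UNT (SE 0.12, edgeR adjusted p = 3.31e-08) and -0.85 between RGLS4326 and UNT (edgeR adjusted p = 1.61e-07). Against PBS mice the RGLS4326 mice had 0.06, with a 95% interval of -0.20 to 0.32 (edgeR adjusted p = 0.731). Fat cells also express Aqp7. Of 6 adipocyte markers 5 were higher in PBS than in UNT mice, where 43.1% of all tested genes were higher. Summed adipocyte markers were 17.5 to 187 CPM in UNT mice, 105 to 449 CPM in PBS mice and 59.1 to 174 CPM in RGLS4326 mice. Over 34 mice with group means removed, Aqp7 had a correlation of 0.036 with the mean log2 level of these markers. Their part in the Aqp7 difference was not tested.

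Aqp8, a water channel known mostly from liver, pancreas and gut, was near the limit of detection. It gave 2 to 35 reads per UNT library, 1 to 13 per PBS library and 0 to 6 per RGLS4326 library, and 152, 55 and 30 reads over the 3 groups. The means were 0.355 ± 0.214 CPM (SD, n = 12), 0.143 ± 0.121 CPM (SD, n = 11) and 0.0956 ± 0.0568 CPM (SD, n = 11). When the low-count filter was lifted, Aqp8 was lower in PBS than in UNT mice by a log2 difference of -1.37 (SE 0.36, edgeR adjusted p = 0.000906). The value was -0.51 between RGLS4326 and PBS mice, with a 95% interval of -1.42 to 0.39 (edgeR adjusted p = 0.415).

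Markers of the proximal tubule were lower in PBS than in UNT mice, as Aqp1, Aqp7 and Aqp11 were, whereas most were higher in RGLS4326 than in PBS mice, where none of those 3 aquaporins was called. All 10 proximal tubule markers were lower in PBS than in UNT mice, with a median log2 difference of -2.64, where 39.0% of all tested genes were lower. Between RGLS4326 and PBS mice 6 of 10 were higher, with a median of 0.56, where 15.3% of all tested genes were higher. Slc5a2, the glucose transporter of the early proximal tubule, was 613 ± 60.5 CPM in UNT, 88.9 ± 26.2 in PBS and 135 ± 19.3 in RGLS4326 mice. Slc34a1, the sodium-phosphate cotransporter, had a log2 difference of -2.87 between PBS and UNT, and Lrp2, which encodes megalin, had -2.59. Slc5a12 had 0.90 and Cubn, which encodes cubilin, had 0.64 between RGLS4326 and PBS. The summed level of the 10 markers was 10166 to 14577 CPM in UNT mice, 965 to 3371 CPM in PBS mice and 2156 to 3653 CPM in RGLS4326 mice. In bulk tissue fewer cells of a type and less RNA per cell cannot be told apart, and the part of these markers in the aquaporin differences was not tested.

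Of 7 thin descending limb markers 4 were higher and 3 lower in PBS than in UNT mice, a split from which nothing particular to that segment is read. Of all tested genes 43.1% were higher and 39.0% lower in PBS than in UNT mice, shares that stand beside every such count in this paragraph. Corin was lower by a log2 difference of -3.69 and Cldn10 by -1.68, while Bst1 was higher by 1.02. Aqp1 is also made by endothelium and red cell precursors. Of 8 endothelial markers 5 were lower and 2 higher in PBS than in UNT mice, Emcn among the lower with -0.90. Between RGLS4326 and PBS mice 5 of 8 were higher, Kdr with 0.43, where 15.3% of all tested genes were higher. Summed endothelial markers overlapped, with 756 to 918 CPM in UNT, 585 to 829 CPM in PBS and 681 to 901 CPM in RGLS4326 mice. Of 7 erythroid markers 3 could be tested, of which Slc25a37 (-0.88) and Alas2 (-1.74) were lower in PBS than in UNT mice, and Hbb-bt was at 0 in every library. Of 5 thick ascending limb markers, a segment that is impermeable to water, 4 were lower and 1 higher in PBS than in UNT mice, with Slc12a1 at -2.11 and Umod at -0.79.

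Aqp2, the vasopressin-regulated channel of principal cells, was higher in PBS than in UNT mice and lower in RGLS4326 than in PBS mice. The gene lies at chr15:99579055-99584547 on the plus strand and has 4 exons. Its level was 161 to 384 CPM in the UNT mice, with a median of 238, and 180 to 1192 CPM in the PBS mice, with a median of 593. In the RGLS4326 mice it was 101 to 918 CPM, with a median of 269. Of the 11 PBS mice 9 were above every UNT mouse, whereas 4 RGLS4326 mice were above and 2 below every UNT mouse. The coefficient of variation was 29.0% in UNT, 50.1% in PBS and 70.2% in RGLS4326 mice. The means were 251 ± 72.7 CPM (SD, n = 12), 607 ± 304 CPM (SD, n = 11) and 353 ± 248 CPM (SD, n = 11).

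Between PBS and UNT mice the log2 difference of Aqp2 was 1.27 (SE 0.29, edgeR adjusted p = 0.000167), and between RGLS4326 and PBS mice it was -0.78 (SE 0.30, 95% interval -1.38 to -0.18, edgeR adjusted p = 0.0413). Between RGLS4326 and UNT mice it was 0.49, with a 95% interval of -0.09 to 1.08 (edgeR adjusted p = 0.118). The PBS against UNT difference was 1.28, 0.73 and 1.69 in sets 1, 2 and 3 alone and passed in each. The RGLS4326 against PBS difference lay close to the threshold. It did not pass when only the 2 groups were fitted (-0.78, edgeR adjusted p = 0.0803), or without any 1 of PBS replicates 2, 9, 10 and 11 or RGLS4326 replicates 1, 3, 5, 6, 7, 9 and 11, with edgeR adjusted p up to 0.0962. In set 1 alone it was -0.35 (edgeR adjusted p = 0.742), in set 2 alone -1.45 (0.00958) and in set 3 alone -1.13 (0.262). With the no-gene share of reads as a covariate, Aqp2 was -0.28 between RGLS4326 and PBS (edgeR adjusted p = 0.524) and -0.09 between PBS and UNT, groups whose shares do not overlap.

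Aqp3, the basolateral exit channel for water and glycerol, lies at chr4:41092722-41098183 on the minus strand and has 6 exons. Its level was 74.1 to 124 CPM in the UNT mice (median 98.4), 44.5 to 213 CPM in the PBS mice (median 145) and 39.5 to 232 CPM in the RGLS4326 mice (median 86.1). The UNT mice lay close together, and the Pkd2-KO mice spread to both sides of them. In PBS mice 7 values were above and 2 below every UNT mouse, and in RGLS4326 mice 4 were above and 4 below. The log2 fold change was 0.47 between PBS and UNT (SE 0.22, edgeR adjusted p = 0.0451), -0.38 between RGLS4326 and PBS (95% interval -0.82 to 0.07, edgeR adjusted p = 0.175) and 0.09 between RGLS4326 and UNT (edgeR adjusted p = 0.711).

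The Aqp3 call between PBS and UNT was fragile. In sets 1, 2 and 3 alone it was 0.38, 0.10 and 0.78, and it passed in set 3 alone. It passed in 4 of 12 alternative fits. It was lost with DESeq2's size factors within edgeR (edgeR adjusted p = 0.0615), with no filter (0.0706), with a term for set (0.0505), with a replicate block (0.124), in sets 1 and 2 alone (0.446 and 0.721), in DESeq2's own test (DESeq2 adjusted p = 0.0536) and in 16 of the 34 fits that each left out 1 library, and it turned to -0.38 with the no-gene share as a covariate. The 16 were without PBS replicate 1, 2, 7, 8, 9 or 10 and without UNT replicate 1, 2, 3, 4, 5, 6, 8, 10, 11 or 12. Without RGLS4326 replicate 4, the highest Aqp3 value, the RGLS4326 against PBS difference of Aqp3 was -0.56 and passed (edgeR adjusted p = 0.0316). In set 2 alone Aqp3 was lower in RGLS4326 than in PBS mice (-0.81, edgeR adjusted p = 0.0484) and also lower than in UNT mice (-0.71, edgeR adjusted p = 0.0385), the latter with the opposite sign to the value from all libraries.

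The promoters of Aqp2 and Aqp3, whose levels varied together between mice, are shown to compare their letters. They are RefSeq windows (GRCm38.p6) of 250 bases before to 50 after the start site, 5′ to 3′, and 8 of the 9 members had a window in that table. Capitals mark matches to 3 motifs, each searched for on both strands, with no overlap between the matches found. The TATA box was read as TATAAA and also, with its last letter changed, as TATAAG. The core of a cAMP response element was read as TGACG. The motif of GATA factors was read as AGATAA. Aqp2 is at chr15:99578806-99579105 on the plus strand and Aqp3 at chr4:41098134-41098433 on the minus strand.
Aqp2: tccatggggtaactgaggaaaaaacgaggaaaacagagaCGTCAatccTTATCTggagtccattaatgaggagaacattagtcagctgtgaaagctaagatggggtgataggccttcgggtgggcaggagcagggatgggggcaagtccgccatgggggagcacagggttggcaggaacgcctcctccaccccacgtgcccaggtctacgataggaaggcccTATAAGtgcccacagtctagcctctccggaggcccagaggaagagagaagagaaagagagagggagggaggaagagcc
Aqp3: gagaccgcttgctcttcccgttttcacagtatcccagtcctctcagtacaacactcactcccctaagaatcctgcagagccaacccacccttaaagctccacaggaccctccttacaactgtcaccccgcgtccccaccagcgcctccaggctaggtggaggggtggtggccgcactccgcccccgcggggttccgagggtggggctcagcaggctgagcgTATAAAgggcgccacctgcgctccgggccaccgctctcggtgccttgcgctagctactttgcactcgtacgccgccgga
Aqp2 held all 3 motifs, with the TATA match at -28, TGACG (read as CGTCA on this strand) at -211 and AGATAA (read as TTATCT) at -202 from the start site. Aqp3 held the TATA match only, at -29. Of 32851 promoter windows 18.76% held a TATA match, 20.81% TGACG and 11.18% AGATAA. Of the other members with a window, Aqp7 held AGATAA at -132 in 1 of its windows and the others held no match to these letters.

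Aqp4, the other basolateral channel of the collecting duct and the main water channel of brain astrocytes, was higher in every Pkd2-KO mouse than in any UNT mouse. The gene lies at chr18:15389496-15410982 on the minus strand and has 5 exons. Its level was 47.0 to 88.2 CPM in the UNT mice, with a median of 67.6, and 124 to 315 CPM in the PBS mice, with a median of 211. In the RGLS4326 mice it was 96.5 to 269 CPM, with a median of 172. The log2 fold change was 1.61 between PBS and UNT (SE 0.15, edgeR adjusted p = 7.23e-12), a 3.06-fold difference of means, and 1.38 between RGLS4326 and UNT (edgeR adjusted p = 3.97e-10). Between RGLS4326 and PBS it was -0.24, with a 95% interval of -0.55 to 0.07 (edgeR adjusted p = 0.221), and 9 of 11 RGLS4326 mice were below the PBS mean. In set 2 alone that difference was -0.60 and passed (edgeR adjusted p = 0.0488).

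Principal cell markers were mostly higher in PBS than in UNT mice, as Aqp2, Aqp3 and Aqp4 were, and mostly lower in RGLS4326 than in PBS mice, where Aqp2 was called and Aqp3 and Aqp4 were not. Of 10 markers 8 were higher and 1 lower in PBS than in UNT mice, where 43.1% of all tested genes were higher and 39.0% lower. Their median log2 difference was 1.41. Between RGLS4326 and PBS mice 7 were lower and 0 higher, with a median of -0.48, where 18.5% of all tested genes were lower and 15.3% higher. The Aqp2 and Aqp4 values between PBS and UNT, 1.27 and 1.61, lay on either side of the median of 1.41 and the Aqp3 value of 0.47 lay under it. Krt8, a keratin of simple epithelia, was 133 ± 16.6 CPM in UNT, 606 ± 176 in PBS and 400 ± 80.3 in RGLS4326 mice. Gata3, a collecting duct transcription factor, had a log2 difference of 1.39 between PBS and UNT and -0.46 between RGLS4326 and PBS, and Elf5 had 1.76 between PBS and UNT. Scnn1b, a subunit of the epithelial sodium channel, had -0.46 between RGLS4326 and PBS. The summed level of the 10 markers was 1504 to 1889 CPM in UNT mice, 2356 to 3152 CPM in PBS mice and 1606 to 3026 CPM in RGLS4326 mice. Their part in the Aqp2, Aqp3 and Aqp4 differences was not tested.

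Aqp2, Aqp5 and Aqp6 lie side by side on chromosome 15, all on the plus strand, within 26423 bases of each other, and they were the 3 members called between RGLS4326 and PBS mice. Aqp5, known for secretion in salivary and lacrimal glands and lung, lies at chr15:99590782-99594829, and Aqp6 lies at chr15:99601400-99605477. The neighbours on either side, which fall outside the rule for named genes and were chosen for their position, were also measured. Between RGLS4326 and PBS, Faim2 (-1.45, edgeR adjusted p = 0.00775) and Bcdin3d (-0.29, edgeR adjusted p = 0.00626) upstream and Asic1 (-0.77, edgeR adjusted p = 0.00287) downstream were lower, and Racgap1, the gene next to Aqp6, had 0.14 (edgeR adjusted p = 0.423). Faim2 and Asic1 were at or under 1.13 CPM in every group mean.

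Aqp6, the vesicle channel of intercalated cells, was lower after RGLS4326 than in either other group. Its level was 61.7 to 90.2 CPM in the UNT mice (median 74.7), 52.2 to 97.1 CPM in the PBS mice (median 71.8) and 33.9 to 79.8 CPM in the RGLS4326 mice (median 51.8). Of 11 RGLS4326 mice 6 were below every PBS mouse and 7 below every UNT mouse. The log2 fold change was -0.42 between RGLS4326 and PBS (SE 0.13, 95% interval -0.69 to -0.16, edgeR adjusted p = 0.0144) and -0.50 between RGLS4326 and UNT (SE 0.13, edgeR adjusted p = 0.00066), the latter not passing in set 3 alone (-0.52, edgeR adjusted p = 0.0515). Between PBS and UNT it was -0.07, with a 95% interval of -0.33 to 0.18 (edgeR adjusted p = 0.607), but with the no-gene share as a covariate it was -0.52 and passed (edgeR adjusted p = 0.00447). The RGLS4326 against PBS call held in all 34 fits that left out 1 library. Within each set alone the value was -0.48, -0.33 and -0.51, without passing, and with the no-gene share as a covariate it was -0.23 (edgeR adjusted p = 0.296).

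Intercalated cell markers were mostly lower in PBS than in UNT mice, 8 of 11 against 3 higher, where 39.0% of all tested genes were lower and 43.1% higher. Their median log2 difference was -0.96, while Aqp6 was not called without the no-gene share as a covariate. Slc4a1, the basolateral anion exchanger of acid-secreting cells, had -2.46, Insrr had -2.67 and the ammonia transporter gene Rhbg had -1.53. Between RGLS4326 and PBS 3 of 11 were lower and 1 higher, with a median of -0.16, where 18.5% of all tested genes were lower and 15.3% higher. Foxi1, the transcription factor that specifies intercalated cells, had -0.63, Dmrt2 had -0.60 and Rhcg had -0.51, and these were the 3 markers that had been higher in PBS than in UNT mice (0.31, 1.31 and 0.71). Insrr, named above as lower in PBS than in UNT mice, was the marker higher in RGLS4326 than in PBS mice, with 0.52. Summed intercalated markers were 843 to 1154 CPM in UNT mice, 593 to 837 CPM in PBS mice and 419 to 784 CPM in RGLS4326 mice, and their part in the Aqp6 difference was not tested.

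Aqp5 was measured from 9 to 88 reads per library. Its level was 0.393 to 2.10 CPM in the UNT mice (median 0.854), 0.647 to 2.67 CPM in the PBS mice (median 1.43) and 0.265 to 1.71 CPM in the RGLS4326 mice (median 0.788). The 3 groups overlapped, with 10 of 11 PBS mice above the UNT mean and 10 of 11 RGLS4326 mice below the PBS mean. The log2 fold change was 0.60 between PBS and UNT (SE 0.26, edgeR adjusted p = 0.0292), -0.89 between RGLS4326 and PBS (SE 0.27, edgeR adjusted p = 0.0142) and -0.28 between RGLS4326 and UNT (edgeR adjusted p = 0.34), the last passing in set 1 alone (-0.71, edgeR adjusted p = 0.0145) and with the opposite sign in set 3 alone (0.41). The PBS against UNT call was lost without PBS replicate 9 or 10 or UNT replicate 6 or 10, and with a replicate block (0.556, edgeR adjusted p = 0.0712). It passed in set 3 alone (1.23) but not in sets 1 and 2 (0.18 and 0.22), and the difference was -0.05 with the no-gene share as a covariate. With that covariate the RGLS4326 against PBS value was -0.59 and did not pass (edgeR adjusted p = 0.258), and within the sets alone it was -0.89, -1.08 and -0.81, without passing. Aqp5 lies next to Aqp2, and there were 3.84, 2.52 and 2.42 Aqp5 reads per 1000 Aqp2 reads summed over the UNT, PBS and RGLS4326 groups, and the values of single mice overlapped widely, from 1.96 to 5.61, 1.16 to 7.71 and 0.725 to 5.41.

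The members with a miR-17 seed match of 7 bases had log2 differences between RGLS4326 and PBS mice of 0.10 for Aqp1 and -0.24 for Aqp4, neither called, and of -0.51 for Aqp8 with the filter lifted. The 3 called members, Aqp2, Aqp5 and Aqp6, held no such match, where 18.62% of all genes with an annotated 3′UTR held at least 1. Action of miR-17 on any of these genes was not tested.

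The make-up of aquaporin mRNA differed between the groups. Per kilobase, in UNT mice the order was Aqp1 (401 ± 50.6 CPM per kb), Aqp2 (177 ± 51.2), Aqp3 (56.6 ± 7.11), Aqp6 (37.0 ± 3.60), Aqp4 (13.5 ± 2.70), Aqp11 (9.30 ± 0.953), Aqp7 (6.51 ± 1.25), Aqp5 (0.543 ± 0.273) and Aqp8 (0.239 ± 0.144), each SD with n = 12. In PBS mice Aqp2 (428 ± 214 CPM per kb, SD, n = 11) came first, followed by Aqp1 (191 ± 52.7) and Aqp3 (78.3 ± 29.6), and Aqp4 (41.4 ± 11.1) and Aqp6 (35.2 ± 7.35) lay within their spread of each other. In RGLS4326 mice Aqp2 (249 ± 175 CPM per kb, SD, n = 11) and Aqp1 (205 ± 46.1) did not differ beyond their spread. Aqp1 made up 57.3 ± 3.58% of the summed level in UNT, 26.5 ± 8.79% in PBS and 38.3 ± 8.75% in RGLS4326 mice. Aqp2 made up 24.9 ± 4.19%, 52.1 ± 11.5% and 39.1 ± 10.2%. Aqp2 per kilobase exceeded Aqp1 in 0 of 12 UNT, 10 of 11 PBS and 5 of 11 RGLS4326 mice.

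**Figure D3:**
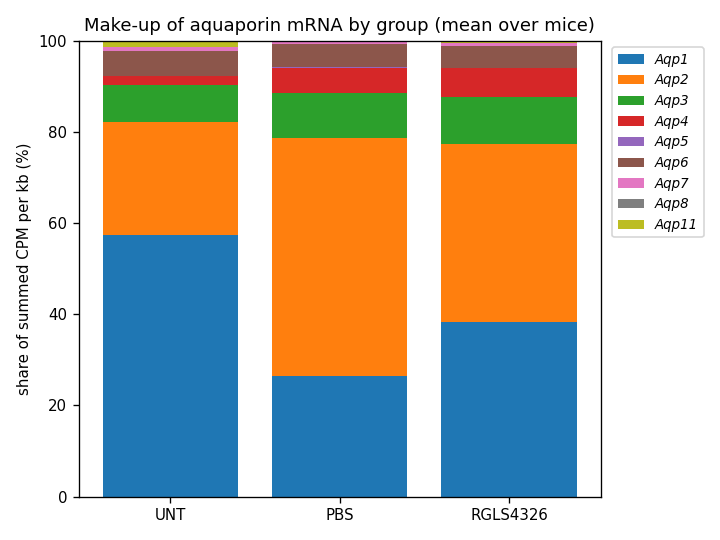
Mean share (vertical axis, percent) of each aquaporin in the summed CPM per kb of the 9 genes in the UNT, PBS and RGLS4326 groups. Aqp1 takes 57.3% of the UNT bar, and Aqp2 takes 52.1% of the PBS bar.

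Across mice Aqp2 and Aqp3 varied together. After removal of group means the Pearson correlation of log2(CPM + 1) over 34 mice was 0.895, and it was 0.80 within UNT, 0.88 within PBS and 0.94 within RGLS4326 mice (Spearman 0.66, 0.67 and 0.86). Without the 2 mice farthest from the median Aqp2 level these were 0.56, 0.59 and 0.86, and with set means also removed the value was 0.88. These correlations are descriptions over mice that share scaling and library preparation. With group means removed, Aqp2 correlated with Aqp4 at 0.657 and with Aqp11 at 0.088. Within UNT, PBS and RGLS4326 mice these were 0.237, 0.521 and 0.896 for Aqp4 and -0.377, -0.035 and 0.458 for Aqp11.

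Aqp1 and Aqp11 had a correlation of 0.81 in PBS and 0.82 in RGLS4326 mice, but -0.50 in UNT mice, where it was -0.16 without the 2 mice farthest from the median Aqp1 level. In RGLS4326 mice it was 0.43 without those farthest from that median. For correlations with marker lists, the log2 levels of a list's genes were averaged in each mouse, and the summed CPM was not used. Over the 34 mice with group means removed, Aqp11 followed the proximal tubule markers at 0.857. It followed the thick ascending limb markers at 0.707 and the endothelial markers at 0.553. Aqp1 followed the same lists at 0.477, 0.697 and 0.581 and the thin descending limb markers at 0.508. It also followed the principal cell markers at 0.457 and the vasopressin and water-handling list described below at 0.625. Aqp7 followed the erythroid markers at 0.433 and the proximal tubule markers at 0.35. Aqp3 and Aqp2 followed the principal cell markers at 0.792 and 0.756. Aqp6 followed the principal cell markers at 0.745 and the intercalated cell markers at 0.562.

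**Figure D4:**
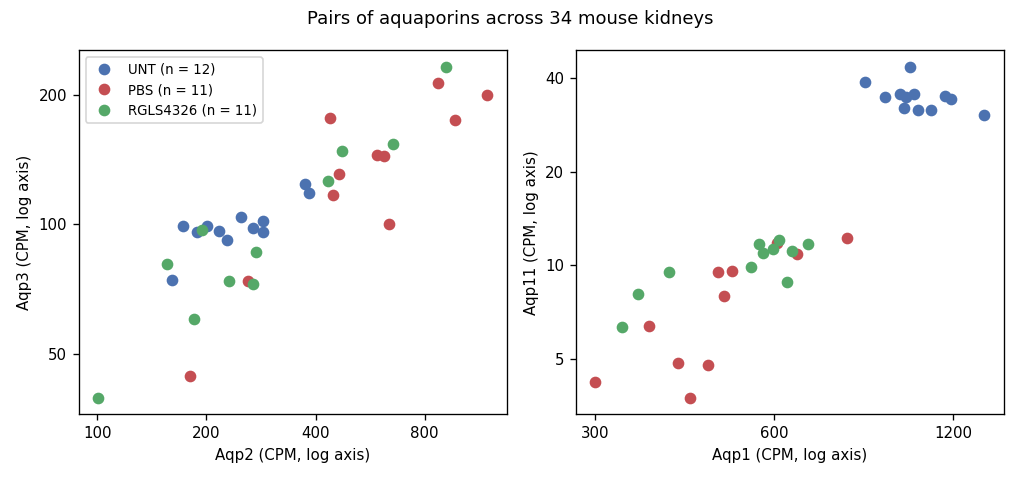
CPM of Aqp3 against Aqp2 (left) and of Aqp11 against Aqp1 (right) on log axes, each point a mouse coloured by group. Aqp3 runs with Aqp2 in all 3 groups, and the UNT mice stand apart at the upper right of the Aqp1 and Aqp11 plot, above 30 CPM of Aqp11.

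Among all tested genes, those most like each abundant aquaporin between mice, by the same group-centred Pearson correlation over 34 mice, were named by rule. For Aqp2 they were Aqp3 (0.895), Fxyd4 (0.824), a regulator of the sodium pump in collecting duct, and Gstt1 (0.803). For Aqp3 they were Aqp2, Gm10664 (0.801) and Hsd11b2 (0.798), the enzyme that inactivates glucocorticoid in principal cells. For Aqp4 they were Lypd6 (0.782), Acer2 (0.695) and Aqp3 (0.687). For Aqp1 they included Mthfd1 (0.86) and Napsa (0.857). For Aqp6 they included Efhd1 (0.841) and Adora1 (0.815). For Aqp11 they were Slc23a1, a vitamin C transporter, Sgk2 and Cth, all at 0.934.

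Genes that signal to, transcribe, move or work beside the collecting duct channels were counted beside all genes. Of the 31 genes of the vasopressin and water-handling list, 12 were higher, 13 lower and 6 not called between PBS and UNT, where 82.1% of all tested genes were called, with a median log2 difference of -0.10 and a range of -2.25 to 2.92. Between RGLS4326 and PBS 4 were higher, 8 lower and 19 not called, where 33.8% of all tested genes were called, with a median of 0.07. Elf3, an epithelial transcription factor, was 29.0 ± 7.78 CPM in UNT, 220 ± 62.7 in PBS and 134 ± 30.5 in RGLS4326 mice, a log2 difference of 2.92 between PBS and UNT and -0.72 between RGLS4326 and PBS (edgeR adjusted p = 0.00181). Ptger4, a prostaglandin E2 receptor that raises cAMP, was higher in PBS than in UNT mice by 1.62. Slc5a3, the myo-inositol transporter of cells in salty medulla, was 405 ± 87.3 CPM in UNT and 93.4 ± 33.2 CPM in PBS mice (-2.12).

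The transcription factors of that list differed in both directions between RGLS4326 and PBS mice. Gata3 (-0.46), Gata2 (-0.41), Elf3 (-0.72) and Elf5 (-0.50) were lower, with edgeR adjusted p of 0.00315, 0.00456, 0.00181 and 0.0166, and Creb1 (0.30) and Nfat5 (0.44) were higher, with edgeR adjusted p of 0.0297 and 0.0225. Tfap2b had 0.26 and did not pass (edgeR adjusted p = 0.0626). Avpr2, the vasopressin receptor, which stands on both this list and the principal cell list, was 31.0 CPM on average in UNT, 88.1 in PBS and 57.5 in RGLS4326 mice. Its log2 fold change was 1.51 between PBS and UNT and -0.62 between RGLS4326 and PBS (edgeR adjusted p = 0.012), beside 1.27 and -0.78 for Aqp2. Avpr2, Creb1, Nfat5 and Tfap2b fall outside the rule for named genes and were chosen after their values were seen.

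Among the other family members in the tables, Aqp9, a glycerol and urea channel of liver, gave 0 to 6 reads per UNT library, 7 to 36 per PBS library and 0 to 20 per RGLS4326 library. Its level was 0.0686 ± 0.047 CPM in UNT (SD, n = 12), 0.538 ± 0.227 CPM in PBS (SD, n = 11) and 0.331 ± 0.205 CPM in RGLS4326 mice (SD, n = 11). Aqp9 could pass the low-count filter only through the groups where it was high, so no test of it is given. Aqp12 gave 1 read and Mip, the lens channel, 2 reads over all 34 libraries.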

How the data were processed

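Kidney RNA of 34 mice was examined. Per the labels and the study's methods, the authors made strand-marked libraries of mRNA and ran paired-end sequencing on a NextSeq instrument. Reads were checked with FastQC 0.11.2, trimmed with Trim Galore, aligned by STAR to GRCm38, and those aligned uniquely were counted by HTSeq 0.6.1. SAMtools 1.1 and Picard 1.119 are also in the submitters' processing notes. The strand setting and annotation are not given in the sources used here. The deposited values were raw counts per gene symbol, 1 table per mouse, not normalized or pooled. The counter's rows that name no gene stayed out of library sizes and tests; reads in no gene were 4.938% to 12.011% of a library. No 2 libraries were identical.

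Counts were fitted with edgeR 4.0.16 in R 4.3.3 (TMM scaling, filterByExpr, glmQLFit and glmQLFTest, 34 libraries, 3 groups, no covariate), with Benjamini-Hochberg adjustment over 15644 genes and calls at an adjusted p under 0.05. The fit was tested on simulated data. No annotated exon of the 9 genes overlapped another gene in GENCODE M21, which with RefSeq also gave positions and sequences. Alternatives were edgeR with the size factors of DESeq2 or upper-quartile scaling, DESeq2 1.42.0, no filter, a term for set, each set alone, the no-gene share or the Y-linked gene Ddx3y as a covariate, a replicate block, only the groups compared, and each library left out.

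The named genes were all 9 members, the other family genes, Pkd2, the 3 genes of each list with the smallest p in each of 2 comparisons (PBS against UNT, RGLS4326 against PBS), and the 3 genes most correlated with each of 6 abundant members. Some genes that this rule names are not reported here. The members and lists were chosen with earlier results of these data known, so they are not independent evidence. Intervals do not cover differences in dissection or library preparation.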

Additional observations from a re-analysis of the deposited data

How the results depend on the processing

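Of 288 member differences under the alternatives, 246 kept their direction and their side of the threshold, as did 777 of 816 with 1 library left out. The count of aquaporins called was 5 to 7 between PBS and UNT and 4 to 7 between RGLS4326 and UNT over the 12 alternatives, in which 64.8% to 82.4% and 55.8% to 78.2% of all tested genes were called, and 5 to 7 and 5 with 1 library left out, beside 81.1% to 82.4% and 76.8% to 79.0% of all tested genes. Between RGLS4326 and PBS it was 3 as reported and 2 to 4 with 1 library left out, beside 25.6% to 39.6% of all tested genes, but 0 in set 1 alone, 0 in set 3 alone and 0 with the no-gene share of reads as a covariate, fits in which 54, 0 and 89 of all tested genes were called. The sets alone hold fewer mice, and the cause under the covariate was not tested.

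These log2 differences changed sign. With the no-gene share, Aqp2 was -0.092, Aqp3 -0.376 and Aqp5 -0.047 between PBS and UNT, and Aqp2 was -0.369 and Aqp3 -0.409 between RGLS4326 and UNT. Between RGLS4326 and UNT, Aqp2 was -0.721 and Aqp3 -0.712 in set 2 alone, Aqp5 was 0.412 in set 3 alone, and Aqp3 was -0.015 with Ddx3y as a covariate. Between RGLS4326 and PBS, Aqp1 was -0.263 and Aqp7 -0.094 in set 2 alone, Aqp7 was -0.062 in set 3 alone and Aqp3 was 0.082 in set 1 alone. Between PBS and UNT, Aqp6 was 0.075 in set 1 alone. With 1 library left out, Aqp3 ran from -0.09 to 0.178 between RGLS4326 and UNT, below 0 only without RGLS4326 replicate 4, and Aqp7 ran from -0.001 to 0.147 between RGLS4326 and PBS, below 0 only without PBS replicate 2. The cause of these changes was not tested.

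The replicate number was shared only as a number. Same-numbered mice had deviations from their group means correlated between -0.415 and 0.454, so the numbers were not taken to pair mice. With a replicate block 5 aquaporins were called between PBS and UNT, 3 between RGLS4326 and PBS and 5 between RGLS4326 and UNT, beside 81.7%, 32.6% and 77.7% of all tested genes. In that fit the PBS against UNT calls of Aqp3 (0.348) and Aqp5 (0.556) did not pass, and Aqp3 was -0.058 between RGLS4326 and UNT. Of 11 same-numbered pairs, 0 to 1 correlated best with their own number. Aqp5 and Aqp8, with at most 88 reads per library, are limited by depth.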

Other observations

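The reads of the Y-linked gene Ddx3y were over 20 in 6 of 12 UNT, 6 of 11 PBS and 5 of 11 RGLS4326 libraries, so that both sexes were present in each group in similar numbers. Within sets they were less even, as all 3 RGLS4326 libraries of set 2 were over 20.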
